A study of Homo sapiens with 21 samples.

Results

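Stem cell-derived islet cells without an edited gene were compared 7 days after they received a lentivirus that carried ISL1, with the same cells given a control virus. The comparison rests on 4 of the 21 libraries of the series, 2 from wild-type cells (WT) with the ISL1 vector and 2 from WT with the BFP vector. They were chosen by genotype and vector alone, and all genes were examined. All libraries come from H1, a human embryonic stem cell line, differentiated toward pancreatic islets. Per the labels, dissociated cells received the virus on day 11, as ISL1 joined by IRES2 to the blue fluorescent protein BFP, or as BFP alone. BFP-positive cells were sorted by flow cytometry on day 18, so both groups hold only cells that carried a vector. The other genotypes used below are ISL1-/- and PAX6-/-, each with 3 libraries for either vector, the same days and the same sort. The promoter that drives the vector and the number of clones behind each knockout are not given in the sources used here.

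ISL1 is a LIM-homeodomain transcription factor that binds DNA together with the adaptor LDB1 and recognises sequences with a TAAT core. It is made in all endocrine cell types of the islet, where it acts in their maturation and in hormone gene expression. Outside the pancreas it is best known from motor neurons, heart progenitors and the developing stomach. PAX6 and PDX1 are other homeodomain factors of the developing islet.

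The 4 WT libraries held from 36.8 to 49.8 M read counts and from 31584 to 34018 genes with at least 1 count. Mitochondrial genes took from 1.52% to 1.93% of their counts. Elsewhere in the series 2 libraries stood apart, replicate 3 of PAX6-/- with ISL1 and replicate 4 of PDX1-/- with ISL1, with 3.16% and 3.84% mitochondrial counts. Both enter the estimate of the spread between replicates, and counts of calls are also given without them. Levels are given as CPM, each count as a share of 1 M counts of its library after scaling between libraries. Replicates carry the numbers of the sample descriptions, which are 1 and 3 for WT with BFP and 1 and 2 for WT with ISL1. In WT, number 3 thus occurs only with BFP and number 2 only with ISL1. Whatever these numbers mark cannot be fully told apart from the vector in WT. No label says that the replicates are separate cultures, so p-values measure the spread between these samples, which may be technical.

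How far apart the WT libraries lay across 14217 genes depended on the measure. The median absolute difference in log2 CPM was 0.17 between the BFP libraries and 0.18 between the ISL1 libraries. Between libraries of different vectors it ranged from 0.15 to 0.26, so this measure overlapped. A chi-square of the counts per gene, which also grows with depth, was 46.7 and 60.2 within a vector and from 64.0 to 131 between vectors, larger in all 4 pairs of different vectors. Pearson correlations of log2 CPM across genes were 0.983 and 0.988 within a vector and from 0.964 to 0.983 between vectors.

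ISL1 itself was not higher in the libraries labelled ISL1. The gene (chromosome 5, 51383448 to 51394730, plus strand, GRCh38) had 306 and 519 CPM in WT with BFP and 361 and 337 CPM in WT with ISL1. The groups overlapped, and the log2 fold change was -0.24 ± 0.43 (SE; edgeR's quasi-likelihood test with Benjamini-Hochberg adjustment, adjusted p = 1). The ISL1-/- libraries ranged from 73.7 to 82.4 CPM under BFP and from 71.6 to 96.8 CPM under the ISL1 vector. The level of ISL1 thus gives no check of which libraries received the vector, and the groups below are named by their labels. Whether reads from the vector were counted at the ISL1 gene is not given in the sources used here.

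A set of 7 genes rose in WT with ISL1 and none fell, of 25884 tested (0.027% called; edgeR's quasi-likelihood test with Benjamini-Hochberg adjustment, fit on all 21 libraries, adjusted p under 0.05). They rose by 2.1 to 5.27 on the log2 scale. An unadjusted p under 0.05 was reached by 590 higher genes (2.28%) and 398 lower genes (1.54%). DESeq2 called 48 higher and 15 lower, and limma voom with sample weights 267 higher and 254 lower. The 7 genes are described by what they encode.

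VSIG1, PSAPL1 and TCN1 are genes of gastric epithelium. VSIG1 encodes a membrane protein of the immunoglobulin superfamily at cell junctions (chromosome X, 108044970 to 108079184, plus strand). It had 1.69 and 1.33 CPM with BFP and 26.1 and 37.8 CPM with ISL1, a log2 fold change of 4.40 ± 0.63 (SE; edgeR's quasi-likelihood test, Benjamini-Hochberg adjusted p = 0.00901). TCN1 encodes haptocorrin, a secreted protein that binds cobalamin (chromosome 11, 59852800 to 59866489, minus strand). It had 21.9 and 17.1 CPM with BFP and 125 and 157 CPM with ISL1, a log2 fold change of 2.85 ± 0.40. PSAPL1, a relative of the saposin precursor (chromosome 4, 7430285 to 7434930, minus strand), had 0.989 and 0.665 CPM with BFP and 6.13 and 8.57 CPM with ISL1. In all 3 genes both ISL1 libraries lay far above both BFP libraries, and ISL1 replicate 2 was the higher one.

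CNMD and RARRES2 encode secreted or matrix proteins. CNMD encodes chondromodulin, a cartilage glycoprotein that inhibits vessel growth (chromosome 13, 52703264 to 52739820, minus strand). It had 0.264 and 0.363 CPM with BFP and 9.76 and 14.4 CPM with ISL1, with the largest rise of the 7 genes (5.27 ± 0.74 on the log2 scale). RARRES2 encodes chemerin, a chemoattractant and adipokine (chromosome 7, 150338317 to 150341662, minus strand). It had 15.3 and 11.9 CPM with BFP and 83.5 and 102 CPM with ISL1 (2.77 ± 0.43). CNMD was thus close to undetected with BFP, while RARRES2 was at a moderate level in both groups.

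NOX4 and NMNAT3 encode enzymes. NOX4, an NADPH oxidase that makes hydrogen peroxide (chromosome 11, 89324353 to 89498187, minus strand), had 6.46 and 7.35 CPM with BFP and 42.1 and 49.5 CPM with ISL1 (2.73 ± 0.37). NMNAT3, which makes NAD (chromosome 3, 139560180 to 139678017, minus strand), had 21.9 and 18.7 CPM with BFP and 79.9 and 94.4 CPM with ISL1 (2.1 ± 0.27). Both genes differed by little within a group beside the difference between groups. NMNAT3 overlaps COPB2-DT on the other strand (1295 to 1872 counts in the WT libraries, against 618 to 4526 for NMNAT3). PSAPL1 lies within the span of SORCS2 on the other strand (172 to 617 counts, against 22 to 411 for PSAPL1). The strand setting of the counting is not given in the sources used here, so reads from overlapping parts of such pairs cannot be told apart.

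**Figure D1:**
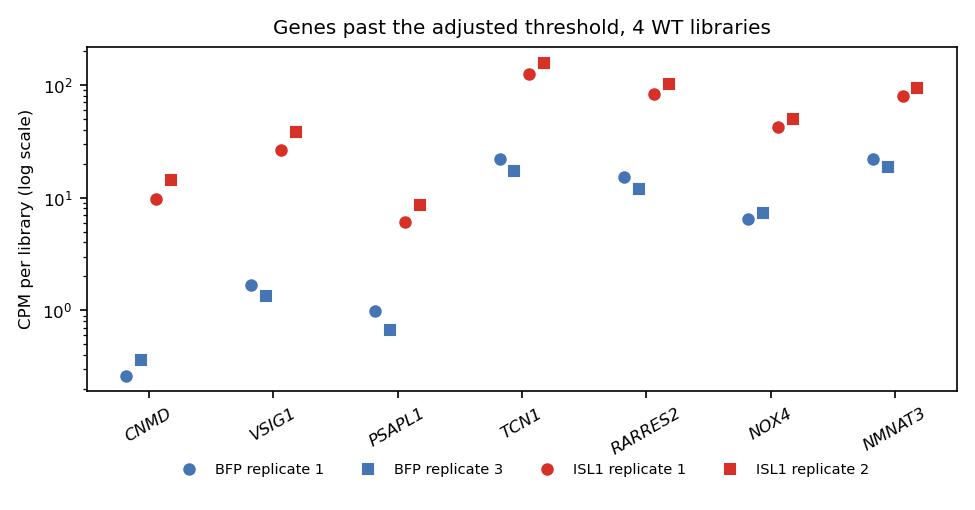
CPM (log scale) of the 7 genes past the adjusted threshold in each of the 4 WT libraries, 1 point per library; blue points are BFP and red points ISL1. Every red point lies above both blue points of its gene, from CNMD (9.76 against 0.363 CPM at the nearest) to NMNAT3 (79.9 against 21.9).

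The number of calls depended on which libraries set the spread. The shared variation between replicates (edgeR's common biological coefficient of variation) was 0.334 over the 21 libraries and 0.166 over the 4 WT libraries. The same edgeR test on the 4 WT libraries alone called 316 of 21461 genes (1.47%), 151 higher (0.704%) and 165 lower (0.769%). Without the 2 libraries that stood apart it called 359 of 27284 genes, 189 higher (0.693%) and 170 lower (0.623%), and 208 genes were called in both of these fits. All 7 genes above were among them. Without WT BFP replicate 1, WT BFP replicate 3 or WT ISL1 replicate 2 the fit on all other libraries called 0 genes (1041, 613 and 837 genes at an unadjusted p under 0.05). Without WT ISL1 replicate 1 it called 5, and PSAPL1 and RARRES2 were the ones lost. With a replicate block within ISL1-/- and PAX6-/-, VSIG1 did not pass in WT (adjusted p = 0.0563), while the other 6 did.

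Promoter sequences are shown for 3 of the 7 genes, because ISL1 binds a TAAT core and these windows differ in how often they hold it. RefSeq windows on GRCh38.p14 were found for 6 of the 7 genes, in 9 windows for their alternative starts. Each window is the 250 bases before the start, 5′ to 3′ on the gene's strand, with TAAT and its reverse complement ATTA in capitals. The windows are chr13:52739821-52740070 for CNMD, chr11:59866488-59866737 for TCN1 and chr7:150341630-150341879 for RARRES2, all on the minus strand.
CNMD: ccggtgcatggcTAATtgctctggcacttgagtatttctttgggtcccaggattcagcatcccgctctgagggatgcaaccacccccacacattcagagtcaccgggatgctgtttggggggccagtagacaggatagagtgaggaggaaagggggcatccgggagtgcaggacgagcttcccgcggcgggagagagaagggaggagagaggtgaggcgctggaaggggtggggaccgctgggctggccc
TCN1: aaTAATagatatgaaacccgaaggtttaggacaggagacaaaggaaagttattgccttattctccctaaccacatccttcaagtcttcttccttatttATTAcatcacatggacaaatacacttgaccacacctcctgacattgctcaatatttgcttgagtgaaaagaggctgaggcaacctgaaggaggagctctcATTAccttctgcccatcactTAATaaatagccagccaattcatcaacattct
RARRES2: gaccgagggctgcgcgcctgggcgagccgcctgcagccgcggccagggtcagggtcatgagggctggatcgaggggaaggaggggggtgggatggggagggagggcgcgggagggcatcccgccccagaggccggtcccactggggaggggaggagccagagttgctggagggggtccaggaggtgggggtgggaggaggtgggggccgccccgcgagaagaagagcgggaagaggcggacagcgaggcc
The CNMD window held 1 match, the TCN1 window 4 and the RARRES2 window 0, counted on both strands with overlaps allowed. A match was present in 6 of the 9 windows, and 47.44% of all 35116 windows of the same length held one. NOX4 and NMNAT3 have more than 1 window, and those of NMNAT3 overlap. By gene, 4 of the 6 had a match in at least 1 window. These matches describe the letters of the windows only.

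A looser set of criteria was met by 84 higher genes (0.325% of those tested), among them 6 of the 7 called genes (all but PSAPL1, which had under 10 CPM), and by 74 lower genes (0.286%). They had an unadjusted p under 0.05 in the fit on 21 libraries, an adjusted p under 0.05 in the fit on the 4 WT libraries, a mean of 10 CPM or more in the group with the higher level, and groups that did not overlap. Lack of overlap alone says little with 2 libraries a group, as 41.6% of all genes tested had it. The genes named next have the largest differences among these and did not pass the adjusted threshold in the fit on 21 libraries unless said above. In these bulk samples fewer cells of a type and less RNA per cell cannot be told apart.

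The higher genes outside the 7 calls encode a transcription regulator, transporters, matrix proteins and receptors. PRDM14, a regulator of pluripotent and germ cells, had 3.23 and 4.20 CPM with BFP and 58.4 and 59.2 CPM with ISL1 (log2 fold change 3.98 ± 0.76; adjusted p = 0.0854 by edgeR's quasi-likelihood test on 21 libraries and 0.000152 on the 4 WT libraries). SLC4A4, the sodium bicarbonate cotransporter of duct epithelium, had 6.15 and 5.83 CPM with BFP and 65.0 and 65.3 CPM with ISL1 (3.44 ± 0.65). In both genes the groups lay far apart beside the replicates. COL14A1, a collagen associated with fibrils, had 29.6 and 22.5 CPM with BFP and 222 and 173 CPM with ISL1. KCNN2, a calcium-activated potassium channel, had 5.47 and 1.54 CPM against 22.03 and 24.6. HSD11B2, which inactivates cortisol, had 4.68 and 2.57 CPM against 19.0 and 24.6. LAMA3, BMPR1B, P3H2 and EPHA7 (a laminin chain, a BMP receptor, a collagen hydroxylase and an ephrin receptor) had log2 fold changes from 2.08 to 2.25.

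The lower genes encode a glucose transporter, enzymes, plasma proteins and peptide hormones. SLC2A2, the glucose transporter GLUT2 of beta cells, liver and intestine, had 25.7 and 29.1 CPM with BFP and 6.97 and 6.52 CPM with ISL1 (log2 fold change -2.02 ± 0.55; adjusted p = 0.557 by edgeR's quasi-likelihood test on 21 libraries and 0.00267 on the 4 WT libraries). AKR1D1, a reductase of bile acid synthesis, had 49.1 and 57.9 CPM against 10.3 and 13.6. AHSG, the plasma protein fetuin-A, had 23.6 and 31.6 CPM against 3.46 and 4.71. These 3 genes were at least 3 times lower in either ISL1 library than in either BFP library. MEP1A, a brush border protease, had 59.6 and 77.9 CPM against 18.1 and 22.3. APOM, an apolipoprotein, had 92.6 and 116 CPM against 26.8 and 31.5, and overlaps BAG6 on the other strand (1216 to 2125 counts). HKDC1, a hexokinase, had 29.7 and 43.2 CPM against 8.36 and 10.4.

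In another 4 of the lower genes the BFP libraries themselves lay apart. GNRH2, a gonadotropin-releasing hormone, had 7.89 and 22.8 CPM with BFP and 1.39 and 1.98 CPM with ISL1, the lowest log2 fold change of the 74 genes (-3.18 ± 1.04). NPPB, the natriuretic peptide BNP, had 14.0 and 42.3 CPM against 3.36 and 5.00. AGTR1, an angiotensin receptor, had 16.3 and 40.2 CPM against 5.50 and 7.34, and ANXA13, an annexin of gut epithelium, had 22.8 and 59.3 CPM against 8.48 and 10.0. In each of them BFP replicate 3 was the higher BFP library. CA3, CYP4X1, MMP1, TMC3 and HMCN1 complete the 15 largest, with log2 fold changes from -1.77 to -2.27.

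**Figure D2:**
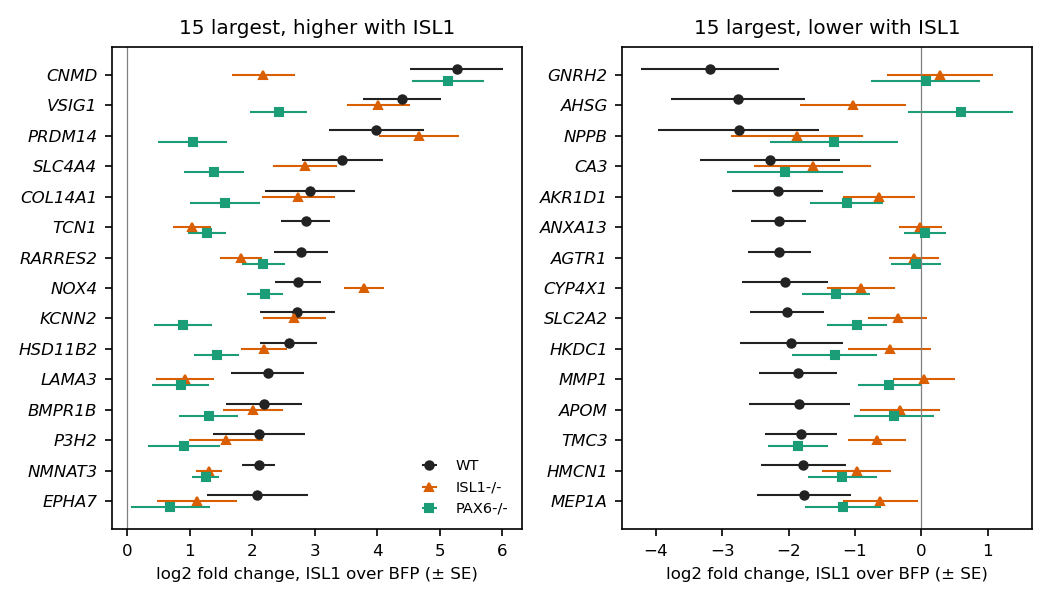
Log2 fold change of ISL1 over BFP (± SE) for the 15 genes with the largest positive and the 15 with the largest negative values in WT among the 84 and 74 genes (black), with the same genes in ISL1-/- (orange) and PAX6-/- (green). All 15 genes on the left lie above 0 in the 3 genotypes, while GNRH2, ANXA13 and AGTR1 on the right lie close to 0 in both knockouts.

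Gene lists for cell types and pathways gave the following counts. The lists were chosen with earlier results of these data known, and the stomach list holds 3 of the 7 called genes. Shares over all genes are given for scale and do not test a list. Of 19 stomach epithelium genes 16 were tested, 3 rose (VSIG1, TCN1 and PSAPL1) and none fell in the fit on 21 libraries. At an unadjusted p under 0.05 there were 7 higher and 1 lower, beside 2.28% and 1.54% of all genes tested. The fit on the 4 WT libraries called 6 higher and 0 lower, beside 0.704% and 0.769% of the genes in that fit. Without overlap, 9 were higher and 3 lower, beside 20.8% of all genes tested in each direction. The median log2 fold change of the list was 0.99, against 0.003 over all genes tested. Genes of the trefoil peptides, secreted by mucous cells, had higher levels in both ISL1 libraries than in both BFP libraries, without passing on 21 libraries. TFF2 had 0.747 and 0.605 CPM against 5.35 and 4.44 (adjusted p = 0.0525 on 21 libraries and 0.00571 on the 4 WT libraries by edgeR's quasi-likelihood test). TFF3 had 10.2 and 7.53 CPM against 23.7 and 21.8 (0.719 and 0.0197 as adjusted p in the same fits), and TFF1 had 4.75 and 2.39 against 9.68 and 11.7 (0.557 and 0.0565). ANXA10, an annexin of gastric mucosa, had 1.65 and 1.45 CPM against 4.93 and 7.09.

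Some other defining stomach genes were not higher with ISL1. The gastric junction gene CLDN18 had 16.1 and 15.4 CPM with BFP and 15.1 and 12.3 CPM with ISL1, slightly lower and not called in either fit, and the gastric transcription factor gene GATA5 had 36.4 and 26.0 against 29.6 and 32.9. GAST, which encodes gastrin, had 364 and 203 CPM against 341 and 290, and CTSE and PSCA also overlapped. GKN2 had at most 9 counts in a library and was lower with ISL1, and 1 gene of the list had no count in any WT library. The summed level of the list was 548 and 332 CPM with BFP and 656 and 662 CPM with ISL1.

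Of 12 genes of liver and yolk sac, all tested, 11 had lower levels in both ISL1 libraries than in both BFP libraries (20.8% of all genes tested were lower without overlap). None passed the adjusted threshold on 21 libraries. On the 4 WT libraries 3 were called lower (AHSG, APOB and SERPINA1), beside 0.769% of the genes in that fit. The median log2 fold change was -0.74. AFP, the fetal albumin-like protein, had 4266 and 5417 CPM with BFP and 2341 and 2929.96 CPM with ISL1. FGB, a fibrinogen chain, had 7163 and 8129 CPM against 4186 and 5484, and TF, the iron carrier transferrin, had 249 and 442 CPM against 147 and 155. RBP4 was the gene that overlapped, and it is also on the delta cell list. The summed level of the list was 18919 and 21582 CPM with BFP and 11234 and 13467 CPM with ISL1.

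Of 17 mesenchyme genes none passed the adjusted threshold in either fit, with a median log2 fold change of 0.57. POSTN, a matrix protein, had 26.8 and 6.20 CPM with BFP and 83.5 and 141 CPM with ISL1. COL1A1 had 115 and 22.4 CPM against 181 and 205, so BFP replicate 3 was far below the other 3 libraries. The summed level was 3731 and 2333 CPM with BFP and 6946 and 4991 CPM with ISL1, of which FN1 (fibronectin) gave the most. In the stomach list the summed levels of the BFP libraries lay further from each other than the higher one lay from the ISL1 libraries, and in the mesenchyme list no gene passed. The sums of all 3 lists did not overlap between the vectors. For the stomach list this rested on the called gene TCN1 (21.9 and 17.1 CPM with BFP, 125 and 157 CPM with ISL1). Without TCN1 the stomach sums overlap. Their part in the differences of other genes was not tested.

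Of 16 intestine genes 15 were tested and none passed on 21 libraries. The fit on the 4 WT libraries called FABP1 and LGALS4 lower, beside 0.769% of the genes in that fit. FABP1, a fatty acid carrier of liver and gut, had 145 and 172 CPM with BFP and 49.95 and 54.6 CPM with ISL1. LGALS4, a gut galectin, had 29.3 and 25.9 CPM against 7.50 and 8.44. CDX2, the intestinal homeobox factor, had 123 and 115 CPM against 95.3 and 98.9.

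**Figure D3:**
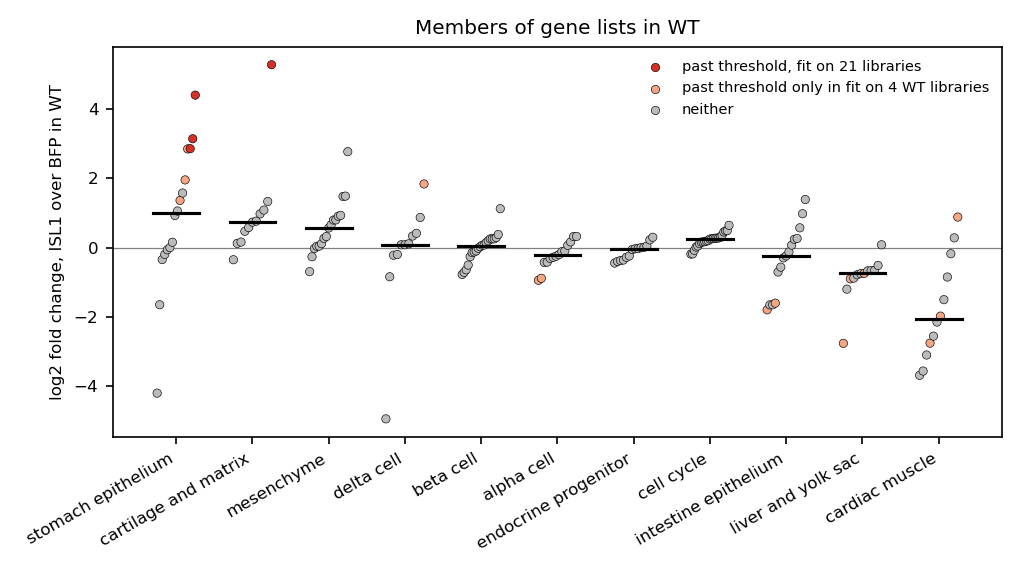
Log2 fold change of ISL1 over BFP in WT for each tested member of 11 gene lists, 1 point per gene; bars are list medians, and colours mark the fits in which a gene passed the adjusted threshold. Medians run from 0.99 for stomach epithelium to -2.06 for cardiac muscle, with -0.74 for liver and yolk sac and -0.22 to 0.09 for the alpha, beta and delta cell lists.

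None of 7 islet hormone genes passed on 21 libraries, and GHRL was the only one called on the 4 WT libraries. GCG, which encodes glucagon, had 36245 and 51317 CPM with BFP and 34367 and 31162 CPM with ISL1 (log2 fold change -0.42 ± 0.99; adjusted p = 1 by edgeR's quasi-likelihood test), and INS, which encodes insulin, had 7185 and 5651 CPM against 8382 and 6918. GCG had the highest CPM of the hormone genes in every WT library, and the defining islet hormones were present in all of them. CPM is not corrected for gene length. Per kb of exon the group means were 18411 for GCG and 9783 for INS with BFP, and 13778 and 11661 with ISL1. INS shares part of its span with INS-IGF2 on the same strand, which had 0 counts in the WT libraries. Reads from that shared part cannot be told apart. SST (somatostatin) had 92.7 and 138 CPM against 159 and 149, and PPY (pancreatic polypeptide) had 1.47 and 3.84 against 1.78 and 3.92. GHRL, the ghrelin gene, had 74.5 and 83.6 CPM against 126 and 129, with an adjusted p of 0.0400 in that fit (edgeR's quasi-likelihood test). PAX6 and PDX1 overlapped between the groups, with log2 fold changes of -0.26 and 0.03.

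**Figure D4:**
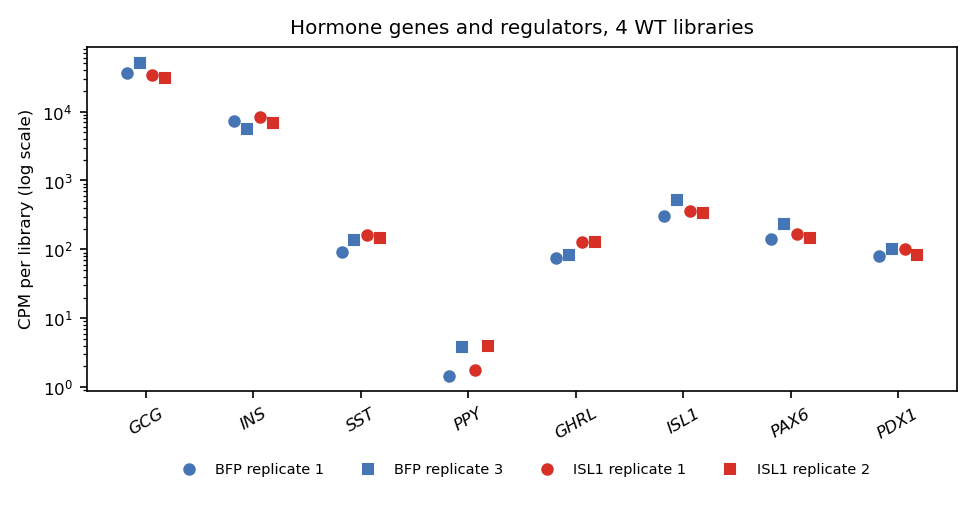
CPM (log scale) of hormone genes and of ISL1, PAX6 and PDX1 in each of the 4 WT libraries, 1 point per library; blue points are BFP and red points ISL1. ISL1 lies between 306 and 519 CPM in all 4 libraries. GCG, SST and GHRL do not overlap between the vectors, and neither did 41.6% of all genes tested.

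Lists of endocrine identity gave no call on 21 libraries. Of 14 alpha cell genes the fit on the 4 WT libraries called DPP4 and TM4SF4 lower, beside 0.769% of the genes in that fit. DPP4, a peptidase, had 1787 and 1744 CPM with BFP and 903 and 1012 CPM with ISL1. Of 20 beta cell genes none passed in either fit, and the median log2 fold change was 0.05. The beta cell regulator NKX6-1 overlapped between the groups. Of 14 endocrine progenitor genes, 12 pancreatic progenitor genes tested and 17 genes of granule cargo none passed in either fit. Of 11 duct cell genes SLC4A4 was called higher on the 4 WT libraries, and KRT19 and CFTR are on the same list without a call.

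HHEX, a homeobox factor of delta cells, was higher with ISL1. It had 26.3 and 27.9 CPM with BFP and 88.5 and 105 CPM with ISL1 (log2 fold change 1.84 ± 0.35; adjusted p = 0.0854 by edgeR's quasi-likelihood test on 21 libraries and 0.00182 on the 4 WT libraries). None of the other 10 delta cell genes passed in either of these fits, and the median of the list was 0.09. On the list of epsilon and PP cells none of 8 genes passed on 21 libraries. On the 4 WT libraries GHRL and MEIS2 were called higher and ANXA13 lower (0.704% and 0.769% of the genes in that fit). MEIS2, a homeobox factor, had 30.1 and 19.4 CPM against 54.7 and 66.6 (adjusted p = 0.0947 and 0.0294 in the same edgeR fits). Of 12 genes of enterochromaffin cells, the serotonin-producing cells of the gut, none passed on 21 libraries, and on the 4 WT libraries TRPA1 was called higher and DDC lower. DDC had 304 and 314 CPM against 168 and 164 (adjusted p = 0.446 and 0.0142). DDC encodes the decarboxylase of serotonin and dopamine synthesis. TPH1, the first enzyme of serotonin synthesis, had 29.2 and 56.6 CPM against 23.3 and 24.3, and FEV, a regulator of these cells, had 385 and 451 CPM against 287 and 277.

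Among 28 genes of stimulus-secretion coupling, 2 were called higher and 1 lower on the 4 WT libraries and none on 21. In the fit on the 4 WT libraries 0.704% of all genes were called higher and 0.769% lower. SYT4, a synaptotagmin of secretory granules, had 187 and 208 CPM with BFP and 505 and 473 CPM with ISL1, and CACNA1H, a T-type calcium channel subunit, had 26.6 and 24.2 against 61.1 and 42.1. SLC2A2, given above, was the lower one. The channel genes ABCC8 and KCNJ11 overlapped between the groups. None of 17 genes of ISL1 and its LIM complex partners passed in either fit. Their log2 fold changes ran from -1.16 to 2.32. Without overlap, 4 of the 17 genes were higher and 3 lower, near the 20.8% of all genes tested in each direction. LDB1 had 18.3 and 18.2 CPM against 19.7 and 19.9, and LMO4, a LIM-only protein, had 73.6 and 58.7 CPM against 104 and 126 (adjusted p = 0.0554 by edgeR's test on the 4 WT libraries).

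Of 17 neuron genes none passed on 21 libraries and 2 were called higher on the 4 WT libraries, NEFL and NEFM, which encode neurofilament chains. In the fit on the 4 WT libraries 0.704% of all genes were called higher. NEFL had 93.8 and 81.8 CPM with BFP and 209 and 236 CPM with ISL1, and NEFM had 148 and 129 against 236 and 228. CHAT, the acetylcholine-synthesising enzyme of motor neurons, had 0 counts with BFP and at most 11 counts with ISL1, and STMN2 and TUBB3 overlapped. Of 41 WNT and BMP genes none passed on 21 libraries. On the 4 WT libraries 3 were called higher, beside 0.704% of the genes in that fit. These were BMPR1B, BMPER and the ligand gene BMP7 (19.5 and 17.3 CPM against 37.7 and 34.6). BMPER, a secreted BMP regulator, had 0.0879 and 0.363 CPM against 1.62 and 2.44.

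Of the 8 pluripotency genes tested PRDM14 was the only one called on the 4 WT libraries, and none passed on 21. POU5F1 stayed under 1 CPM in all 4 libraries. CNMD was the only call among 11 cartilage genes. Of these genes 10 had a positive log2 fold change, 7 were higher without overlap (20.8% of all genes tested) and 0 lower, and the median was 0.74. COL2A1, the most abundant and the only negative one, had 1854 and 1338 CPM against 1399 and 1109. SOX5, a cartilage transcription factor, had 25.6 and 27.6 CPM against 40.3 and 33.5. Of 12 cardiac genes the fit on the 4 WT libraries called TTN higher and NPPB and MYH6 lower (0.704% and 0.769% of the genes in that fit). The median of this list was -2.06, with 10 of 12 genes negative and 6 lower without overlap (20.8% of all genes tested). Its summed level was 43.6 and 96.1 CPM with BFP and 43.7 and 40.0 CPM with ISL1, so BFP replicate 3 stood above the other 3 libraries. The levels were low, as TNNT2, the cardiac troponin T gene, stayed under 1 CPM and NKX2-5 had at most 7 counts in a library. TMC3, VIL1, PAX6 and ANXA4 share part of their span with genes on the other strand and carry the same limit as APOM. TF, TTN and CHAT share part of theirs with SRPRB, CCDC141 and SLC18A3 on the same strand. No strand setting would tell reads from those shared parts apart. None of 23 cell cycle, 21 interferon or 19 stress genes passed in either fit, with medians of 0.25, -0.03 and -0.26. Without overlap, 3 cell cycle genes were higher and 0 lower, and 2 interferon genes higher and 8 lower. Of the stress genes 0 were higher and 12 lower, beside 20.8% of all genes tested in each direction. Of the cell cycle genes 20 of 23 were positive. FOS, an immediate early gene, had 834 and 874 CPM with BFP and 604 and 648 CPM with ISL1. None of 13 mitochondrial or 7 acinar genes tested passed in either fit.

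The fit without the 2 libraries that stood apart changed some calls on these lists. It also called TFF1 and UNC5B higher and ANXA4, RSPO3, TF, VIL1 and VTN lower, which had not passed on the 4 WT libraries. Calls on the 4 WT libraries that it did not make were GHRL, NEFM and TTN on the higher side and APOB, DPP4, MYH6 and SERPINA1 on the lower side.

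The same genes were then followed in the knockouts, whose libraries are not part of the WT comparison but share the fit's estimate of the spread. Of the 84 genes higher in WT, 80 (95.2%) had a positive log2 fold change in ISL1-/- and 79 (94.0%) in PAX6-/-. Over the 11033 genes with at least 10 CPM these signs made up 50.7% and 47.1%. The 84 genes were chosen by their WT values, so their shares do not describe agreement over all genes. Pearson correlations of the log2 fold changes in WT with those in ISL1-/- and PAX6-/- were 0.21 and 0.12 over all 25884 genes. Over the 11033 genes they were 0.43 and 0.17. A rise passed the adjusted threshold for 18 of the 84 genes in ISL1-/- and 13 in PAX6-/- (0.363% and 0.254% of the 11033 genes; 0.251% and 0.17% of all genes tested). The medians of the 84 genes were 0.96 in ISL1-/- and 0.89 in PAX6-/-. Their median in WT, 1.34, is among the values that chose them and is not comparable.

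Of the 74 genes lower in WT, 57 (77.0%) were negative in ISL1-/- and 64 (86.5%) in PAX6-/-, against 49.3% and 52.9% of the 11033 genes. A fall passed the threshold for 2 of the 74 genes in ISL1-/- and 4 in PAX6-/- (0.131% and 0.185% of all genes tested). The median was -0.28 in ISL1-/- and -0.45 in PAX6-/-, and -1.19 in WT, where the genes were chosen. No gene of either set passed in the opposite direction. Without the 2 libraries that stood apart, 80 of the 84 genes were positive in PAX6-/- with 55 calls (1.99% of the 11033 genes), and 51 genes were called in ISL1-/- (2.66%). Of the 74 lower genes 18 were then called in ISL1-/- (5.04%). In the same fit 56 of the lower genes were negative in PAX6-/- with 18 calls, beside 59.1% and 7.18% of the 11033 genes.

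Libraries with the same replicate number deviated together within each knockout, and a replicate block changed these counts. With the block within ISL1-/- and PAX6-/-, 16 of the 84 genes were called in ISL1-/- (0.344% of the 11033 genes) and 6 in PAX6-/- (0.0906%). Of the 74 lower genes 2 were called in ISL1-/- (0.127%) and 2 in PAX6-/- (0.109%). With 1 block over all genotypes by the numbers in the descriptions the calls in ISL1-/- and PAX6-/- were 44 (1.28%) and 36 (0.97%) of the 84 genes, and 9 (1.2%) and 12 (2.47%) of the 74. By the numbers in the titles they were 22 (0.462%) and 14 (0.263%) of the 84, and 3 (0.199%) and 4 (0.263%) of the 74. In each of these 3 fits 80 of the 84 genes were positive in ISL1-/- and 79 in PAX6-/-.

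**Figure D5:**
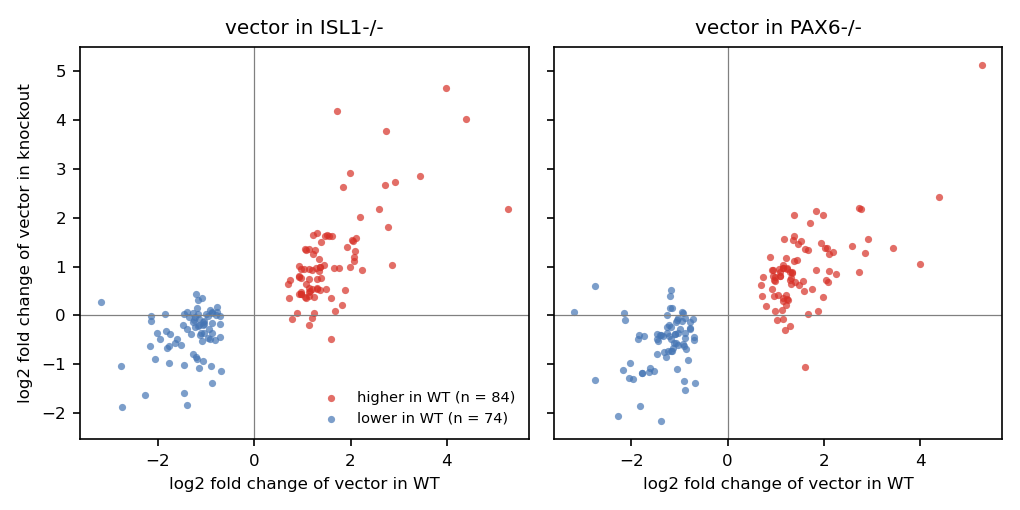
Log2 fold change of ISL1 over BFP in WT (horizontal axis) against the same in ISL1-/- (left) and PAX6-/- (right), 1 point per gene, for the 84 higher (red) and 74 lower (blue) genes chosen in WT. Most red points lie above 0 in both knockouts, 80 and 79 of 84, and 57 and 64 of the 74 blue points lie below 0. The genes were chosen for their WT values, so distances from 0 are not comparable between the axes.

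Named genes had the following values in each genotype, and the test of the difference between genotypes, given next, called none of them. VSIG1 rose in all 3, by 4.40 in WT, 4.02 in ISL1-/- and 2.42 in PAX6-/- on the log2 scale. With the block within the knockouts VSIG1 did not pass in PAX6-/- (adjusted p = 0.0899 by edgeR's quasi-likelihood test). NOX4 rose by 2.73, 3.79 and 2.20, RARRES2 by 2.77, 1.82 and 2.17, and NMNAT3 by 2.1, 1.31 and 1.25. CNMD had 5.27 in WT and 5.13 in PAX6-/-, where it passed, and 2.17 in ISL1-/-, where it did not (adjusted p = 0.0796 by edgeR's quasi-likelihood test). TCN1 had 1.04 in ISL1-/- and 1.28 in PAX6-/-, and PSAPL1 had 0.41 and 1.36, none past the threshold. HHEX rose by 2.64 in ISL1-/- and 2.13 in PAX6-/-, and DDC fell by 1.04 and 1.34.

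The test of the difference itself, the vector effect in a knockout minus that in WT, called 1 gene for ISL1-/- (SLC24A4; 0.00386% of genes tested) and 0 for PAX6-/-. At an unadjusted p under 0.05 there were 769 genes for ISL1-/- (2.97%) and 916 for PAX6-/- (3.54%). DESeq2 called 26 and 8, and limma voom with sample weights 150 and 136. None of the 7 genes above was among the calls of edgeR's test. The count for ISL1-/- fell to 0 without WT BFP replicate 3, WT ISL1 replicate 1, WT ISL1 replicate 2 or ISL1-/- BFP replicate 3, and was 2 without ISL1-/- BFP replicate 2. Without the 2 libraries that stood apart it was 84 for ISL1-/- and 40 for PAX6-/-.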

How the data were processed

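RNA was sequenced in 21 libraries, prepared with the SMART-Seq v4 and KAPA EvoPrep kits for a NovaSeq X, per the labels. The authors deposited 1 table of raw counts, 1 value per gene and library, beside exon positions, per the file headers. The submitters' processing notes name STAR 2.7.11b, featureCounts 2.1.1 and GRCh38, and the strand setting is not given in the sources used here. Of 62700 genes, 62699 were used, since that of ANK2 is split over 3 lines, and each ID used had a symbol in the gene name table.

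Counts were scaled by TMM and tested with edgeR 4.0.16 (quasi-likelihood F test) in R 4.3.3, with 1 coefficient per group and all 21 libraries in the model, so that groups of 2 libraries share the spread of all groups. Genes were kept by filterByExpr (minimum count 10, total 15), which left 25884. P-values were adjusted by Benjamini-Hochberg over all genes tested, with a threshold of 0.05. Log2 fold changes carry a prior count of 0.125 and log2 CPM one of 2, and a count of 0 allows up to 3 counts, which covers counting error only. The procedure was tested on simulated data. No label says what the replicate numbers mark. Deviations from the group means of same-numbered BFP and ISL1 libraries correlated at 0.36 to 0.70 in ISL1-/- and 0.26 to 0.57 in PAX6-/-, so the numbers were taken to pair those libraries. For the 1 number that WT libraries share the correlation was -0.04. With 2 libraries a group it depends as much on BFP replicate 3 and ISL1 replicate 2. It cannot show whether the WT libraries numbered 1 are paired. Alternatives used DESeq2 1.42.0, its size factors, limma 3.58.1 voom with sample weights, no filter, the compared groups alone, a replicate block over all genotypes or within the knockouts, and fits without single libraries or without both that stand apart.

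The text names ISL1, PAX6, PDX1 and the hormone genes, all calls, the 15 largest differences each way under the criteria given above, and up to 4 members per list with an unadjusted p under 0.05. Other list members were named after their values were seen. The comparison and the 26 lists (399 genes, 14 of them in more than 1 list) were chosen with earlier results of these data known. Promoter windows come from RefSeq.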

Additional observations from a re-analysis of the deposited data

Results flagged for a closer look

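SLC24A4, which encodes a potassium-dependent sodium and calcium exchanger, was the gene whose response to the vector differed between ISL1-/- and WT. The WT libraries had 11.5 and 12.1 CPM with BFP and 12.8 and 8.98 CPM with ISL1, and the groups overlapped. The ISL1-/- libraries lay between 0.233 and 0.336 CPM under BFP and between 6.57 and 7.53 CPM under ISL1, without overlap. The difference between the 2 vector effects was 4.66 ± 0.59 on the log2 scale (SE; interaction term, edgeR's quasi-likelihood test, Benjamini-Hochberg adjusted p = 0.00850). The PAX6-/- libraries lay between 0.549 and 1.93 CPM under BFP and between 1.02 and 1.36 CPM under ISL1.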

How the results depend on the processing

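The count of 7 genes in WT was 7 with DESeq2 size factors, 9 with a replicate block by the numbers in the titles, 49 (35 higher) with a replicate block by the numbers in the descriptions, 63 (48 higher) with DESeq2, 521 (267 higher) with limma voom weights, 23 (21 higher) without a filter and 316 (151 higher) on the 4 WT libraries. It was 27 without PAX6-/- ISL1 replicate 3, 52 without PDX1-/- ISL1 replicate 4, and 359 without both, a setting chosen after seeing the data, and from 0 to 5 without each WT library. It was 7 with a replicate block within ISL1-/- and PAX6-/- (chosen after seeing the data), 6 of them among the 7. The number shared by WT libraries gave a correlation of -0.04, which with 2 libraries a group cannot show whether those libraries are paired. The count for ISL1-/- minus WT, 1, was 26 with DESeq2, 150 with voom, 2 without a filter, 108 on the compared groups, 84 without both libraries, from 0 to 2 without each library of the compared groups, 1 with either replicate block over all genotypes and 2 with the block within the knockouts. The count for PAX6-/- minus WT, 0, was 8 with DESeq2, 136 with voom and 40 without both libraries, and 0 in the other fits. The cause was not tested. DESeq2 size factors moved the median of all genes from 0.003 to -0.02. The sign turned for GCG (0.25), PAX6 (0.18) and ISL1 (0.05) with the replicate block by description, and it differed between the fits without each WT library for ISL1 (-0.57 to 0.19), PAX6 (-0.58 to 0.15), PDX1 (-0.14 to 0.21) and PPY (-0.57 to 0.95). The 7 called genes kept their direction in all 15 alternatives each. With 2 libraries a group, leaving 1 out assumes that the lone library varies like the other groups.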

Other observations

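Genes of glycolysis and of the response to low oxygen formed a list that was drawn up after their values were seen. Of its 34 genes 29 had a negative log2 fold change in WT, 22 were lower in both ISL1 libraries than in both BFP libraries (20.8% of all genes tested), and the median was -0.32. None passed the adjusted threshold of edgeR's test on 21 libraries, 6 were lower at an unadjusted p under 0.05 (1.54% of all genes) and DESeq2 size factors left the median of all genes near 0. The fit on the 4 WT libraries called 5 of them lower, beside 0.769% of the genes in that fit. STC1, a secreted calcium and phosphate regulator, had 151 and 172 CPM with BFP and 52.6 and 65.5 CPM with ISL1. LDHA, a lactate dehydrogenase chain, had 625 and 823 CPM against 257 and 349, and HILPDA, a lipid droplet protein, had 76.6 and 106 CPM against 36.4 and 45.8. VEGFA, PFKL and PKM did not share this, as PKM had 1118 and 1109.89 CPM against 1253 and 1122.

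Genes of cobalamin handling were listed in the same way, after TCN1 was seen. CBLIF, the gastric intrinsic factor, had 13.7 and 14.5 CPM with BFP and 49.7 and 68.4 CPM with ISL1 (log2 fold change 2.07 ± 0.35; edgeR's quasi-likelihood test, Benjamini-Hochberg adjusted p = 0.0525 on 21 libraries and 0.00298 on the 4 WT libraries). CUBN, which takes up intrinsic factor with cobalamin in the gut, had 58.8 and 60.8 CPM against 35.6 and 29.5. TCN2, the plasma carrier, had 40.2 and 39.0 CPM against 40.0 and 39.0.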
